A study of Mus musculus with 6 samples.

Results

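The cytosolic ribosomal protein genes are described here in 6 RNA-seq libraries of mouse mammary gland macrophages. They were taken from the deposited count table by symbol, as every Rpl or Rps number with an optional letter (a, l or x) or l1 at its end, plus *Rplp0*, *Rplp1*, *Rplp2* and *Rpsa*. This rule found 83 of the 24061 genes in the table, of which 32 carry an Rps name (small subunit) and 51 an Rpl name (large subunit). The name pattern also takes in 7 paralogues and leaves out a few true ribosomal proteins with other names, which are given separately.

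All cells came from the #4 inguinal mammary glands of FVB/N mice with no further genetic change or treatment named in the labels. Each library was a pool of 4 mice, sorted as CD45+CD11b+F4/80+ and split into Lyve-1+ and Lyve-1-, with 3 libraries of each subset. Replicate 1 of each subset came from mice of 6 weeks and replicates 2 and 3 from mice of 10 weeks. The authors left out a 6-week library as an outlier. With 1 library of each subset at that age here, age and those pools cannot be told apart.

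Ribosomes are built from ribosomal RNA and about one copy each of the ribosomal proteins, which are made in the cytoplasm, carried into the nucleolus and assembled there into a small (40S) and a large (60S) subunit. The small subunit reads the mRNA, and the large subunit joins the amino acids. Because most of the proteins are needed in equal numbers, their mRNAs are under joint control. Many of these mRNAs begin with a run of pyrimidines (the terminal oligopyrimidine or TOP motif). Through it, growth signals acting on mTOR set their translation. Ribosomal protein mRNAs are abundant in most cells, macrophages included.

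The start-site sequences of 8 members named in the results are shown as examples, to let a reader see which of them carry such a run. Each window holds 15 bases before and 15 bases from a RefSeq start of the gene (GRCm38.p6, gene strand), and capitals mark a run of at least 7 C or T bases that reaches within 5 bases of the start. *Rps24* has 2 and *Rps19* 3 such starts, and the window shown is the one with the longest run.
Rps24 (chr14:24490663-24490692, plus strand): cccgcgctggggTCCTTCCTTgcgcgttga
Rps10 (chr17:27635230-27635259, minus strand): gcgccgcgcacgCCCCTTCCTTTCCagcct
Rps6 (chr4:86857353-86857382, minus strand): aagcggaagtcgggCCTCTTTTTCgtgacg
Rpl15 (chr14:18270972-18271001, minus strand): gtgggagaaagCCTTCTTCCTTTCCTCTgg
Rplp2 (chr7:141447636-141447665, plus strand): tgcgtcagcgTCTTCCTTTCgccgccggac
Rps27 (chr3:90213634-90213663, minus strand): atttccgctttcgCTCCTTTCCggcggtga
Rps19 (chr7:24884661-24884690, plus strand): ccgcacggtgagtgagggctctgggtcgcg
Rpl41 (chr10:128549154-128549183, minus strand): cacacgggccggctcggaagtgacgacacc
The first 6 windows hold a run and the last 2 do not. This share of the examples describes neither all members nor those that differed between the subsets. RefSeq gave 74 start sites for 62 of the 83 members, and 39.2% of them had such a run, against 14.1% of 32851 start sites of 27025 genes in the same RefSeq table. The search was made on the gene's strand only, and an annotated start can lie some bases away from the start used in these cells, so a window without a run says only that these letters are not in it.

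The libraries held between 6478007 and 21406839 counts. *Lyve1* checked the labels, at 1.42 to 7.39 CPM (counts divided by a TMM-adjusted library size and scaled to a round total) in the Lyve-1- libraries and 593 to 2340 CPM in the Lyve-1+ libraries. Macrophage markers (6 of the 7 listed were in the table) summed to 3610 to 4800 CPM in Lyve-1- and 4530 to 5460 CPM in Lyve-1+. Lyve-1- replicate 3 and Lyve-1+ replicate 1 stood apart by the number of the 1102 olfactory receptor genes with any count, 642 and 361 against 4 to 132 in the other 4 libraries. The results are therefore also given without those 2 libraries where they change. By counts on the olfactory receptor genes the order differed. Lyve-1- replicate 3 held 9206, Lyve-1+ replicate 2 held 4141 and Lyve-1+ replicate 1 held 3496, against 122 to 326 in the rest. The choice of these 2 libraries thus depends on the measure. Counts assigned to *Rn45s*, the only ribosomal RNA gene in the table, did not overlap between the subsets. They made up 4.56%, 5.04% and 4.67% of all counts in Lyve-1- replicates 1, 2 and 3. In Lyve-1+ replicates 1, 2 and 3 they made up 7.39%, 7.99% and 5.5%. The kit named is for total RNA, while the paper proposes for its outlier that the enrichment of mRNA had failed. How much ribosomal RNA the preparation removed from each library is not given, and its part in these shares was not tested. The *Rn45s* counts also cannot tell the precursor of ribosomal RNA from the mature ribosomal RNAs.

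The first question was how much of each library the ribosomal protein mRNAs took up in the subsets. Together the 83 genes held 18087, 13810 and 19443 CPM in Lyve-1- replicates 1, 2 and 3, and 11457, 12552 and 13989 CPM in Lyve-1+ replicates 1, 2 and 3. The mean was 17113 ± 2940 CPM (SD, n = 3) in Lyve-1- and 12666 ± 1270 CPM (SD, n = 3) in Lyve-1+, a ratio of 0.74. The subsets overlapped in this sum, because Lyve-1- replicate 2 was below Lyve-1+ replicate 3. As a share of all counts, the genes took 1.79%, 1.39% and 2.07% of the Lyve-1- libraries and 1.11%, 1.23% and 1.39% of the Lyve-1+ libraries. In bulk samples, fewer cells of a type and less RNA per cell cannot be told apart.

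The subunits were then summed separately. The 32 Rps genes held 6771, 5683 and 7323 CPM in Lyve-1- replicates 1, 2 and 3 and 4142, 4796 and 4445 CPM in Lyve-1+ replicates 1, 2 and 3. All 3 Lyve-1+ libraries were below all 3 Lyve-1- libraries in this sum, and the ratio of the means was 0.677. The 51 Rpl genes held 11316, 8127 and 12120 CPM in Lyve-1- and 7315, 7756 and 9544 CPM in Lyve-1+, with a ratio of 0.78. Here the subsets overlapped, as Lyve-1+ replicate 3 was above Lyve-1- replicate 2. Between libraries, the Rpl sum was 1.43 to 1.67 times the Rps sum in Lyve-1- and 1.62 to 2.15 times in Lyve-1+. The highest of these ratios, in Lyve-1+ replicate 3, stood beside a low *Rps6* value in that library, which is described with *Rps6*.

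**Figure D1:**
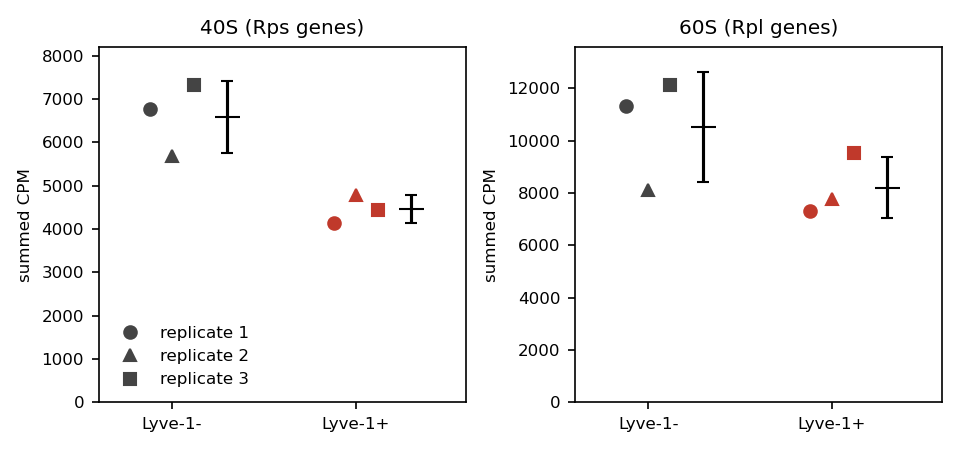
Summed CPM of the 32 Rps genes (left) and the 51 Rpl genes (right) in each library, with circles, triangles and squares for replicates 1, 2 and 3 and black bars for the mean and SD of 3 libraries. The Rps sums of the subsets do not overlap, while the Rpl sum of Lyve-1+ replicate 3 (9544 CPM) lies above that of Lyve-1- replicate 2 (8127 CPM).

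Gene by gene, most members had lower values in Lyve-1+ cells, by amounts that were small beside the spread between pools. Of all 83 genes, 61 had a lower mean CPM in Lyve-1+, 20 a higher one, and 2 had no counts. The test was edgeR's quasi-likelihood test across the 13348 genes that passed a filter on low counts, of which 78 are members. *Rps4l* and *Rps27* passed with counts in Lyve-1+ libraries only. The median log2 fold change of the 78 genes was -0.34, against -0.01 for all genes tested, and 58 of the 78 (74.4%) were below 0, against 50.6% of all genes tested. At an adjusted p under 0.05, 1 member fell (*Rps24*) and 0 rose, where 0.18% of all genes tested were called lower and 0.45% higher. At an unadjusted p under 0.05, 16 of the 78 members (20.5%) were lower, against 3.5% of all genes tested, and 3 were higher, against 4.2%. The count of lower members changed with the libraries kept, and fits with fewer libraries also have less power. The count was 6 of 78 without Lyve-1- replicate 3 (2.73% of all genes), 8 of 78 when Lyve-1+ replicate 1 was dropped (2.72%) and 10 of 79 when Lyve-1- replicate 1 was (3.07%). Without Lyve-1- replicate 2 it was 15 of 79 (2.24%), without Lyve-1+ replicate 2 it was 11 of 79 (3.17%), and without Lyve-1+ replicate 3 it was 18 of 79 (3.68%). With the 10-week libraries alone it was 6 of 78 (2.41%), and without both libraries that stood apart 4 of 76 (2.18%). The study's tighter limits were a log2 fold change between 1 and 10 in size with an adjusted p under 0.01. In the edgeR test, 0.112% of genes and 0 members passed them. The study itself used DESeq2, which here put *Rps24* inside these limits (log2 fold change -1.16, DESeq2 adjusted p = 3.64e-05).

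Counting groups that do not overlap gave a similar picture. In 16 of the 78 members (20.5%) all 3 Lyve-1+ libraries were below all 3 Lyve-1- libraries, as in 6.5% of all genes tested. In 2 members (*Rps4l* and *Rps27*) they were all above, as in 7.82% of all genes tested. By subunit, 23 of 30 tested small-subunit genes were below 0 (median -0.32) and 32 of 40 tested large-subunit genes were (median -0.37), leaving the stalk genes and the paralogues aside. The direction was more even among members with few counts. Of the 47 members with a mean of at least 100 CPM, 43 were below 0 (median -0.40). Of the 31 tested members under 100 CPM, 15 were (median 0.00). The limit of 100 CPM was chosen after the values were seen, and other genes of such levels were not set beside the members. With at least 10 counts in every library, 59 of 70 members (84.3%) were below 0, against 51.2% of all genes. In that fit 18 members were lower at an unadjusted p under 0.05, against 5.56% of all genes.

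**Figure D2:**
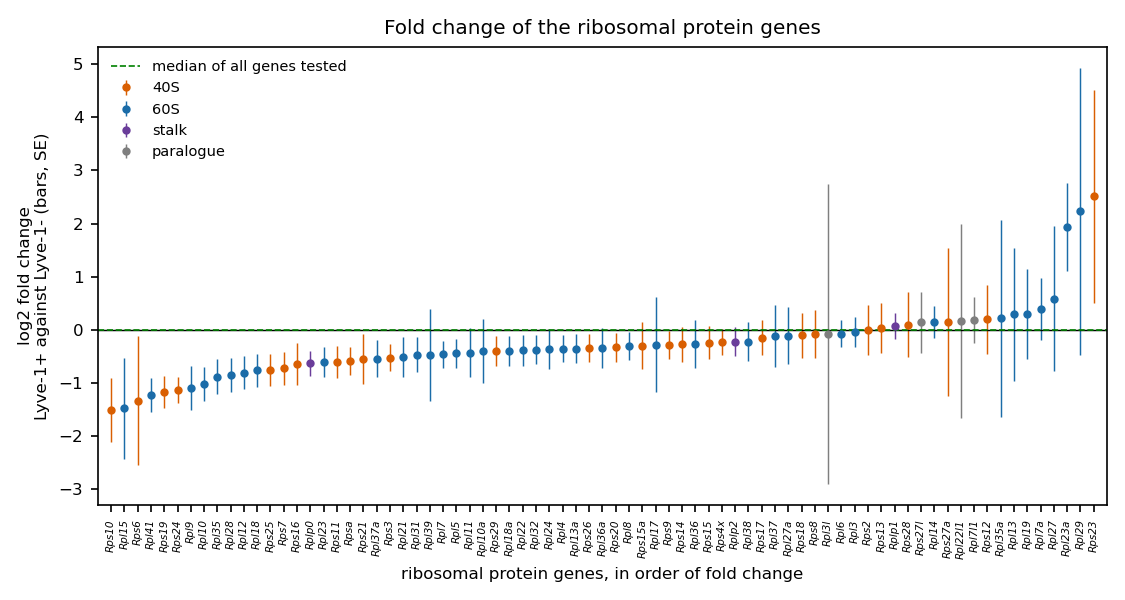
Log2 fold change of 75 members, Lyve-1+ against Lyve-1-, in order of size, with bars for the standard error of the fit and colours for the subunit; *Rps4l* and *Rps27*, at 0 in every Lyve-1- library, are left out, as is 1 further member. Most points lie below 0, and the bars of *Rpl3l* (SE 2.82), *Rpl29* (SE 2.70) and *Rps23* (SE 2.01) are the widest.

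**Figure D3:**
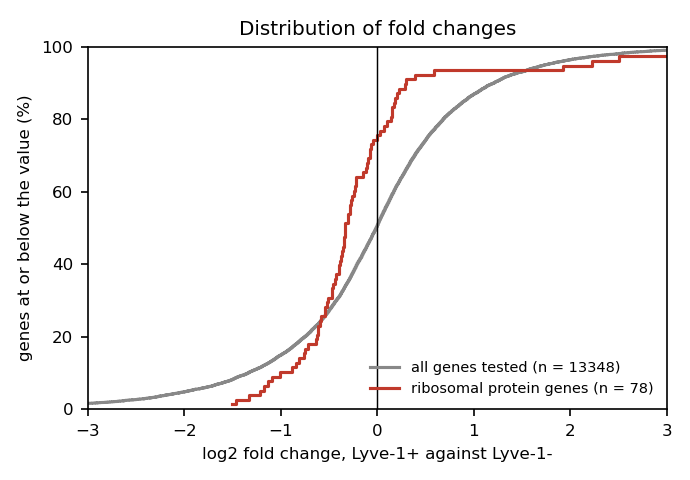
Cumulative share (%) of the 78 tested members (red) and of all 13348 genes tested (grey) at or below each log2 fold change. The members' curve crosses 0 at 74.4%, against 50.6% for all genes, and ends at -1.51 on the left, so that no member reaches the lowest fold changes of other genes.

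The shift was not carried evenly by the libraries. Against each gene's own mean over the 6 libraries, 54, 32 and 67 of the 78 members were above it in replicates 1, 2 and 3 of Lyve-1-. For Lyve-1+ the counts were 27, 29 and 35. Lyve-1- replicate 2 was thus nearer to the Lyve-1+ libraries than to its own group. Lyve-1- replicate 3 and Lyve-1+ replicate 1, the libraries with the most olfactory receptor genes detected, held the highest (19443 CPM) and the lowest (11457 CPM) member sum. Without both, the median of the tested members was -0.16, against 0.01 for all genes, and 49 of 76 were below 0.

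Markers of other cells and states also differed between the subsets. The summed level of the 4 cycling-cell markers was 748 to 1110 CPM in Lyve-1- and 396 to 573 CPM in Lyve-1+, with all 4 lower in the fit and 0 called. That of the 5 conventional dendritic cell markers was 193 to 636 CPM in Lyve-1- and 42.3 to 158 CPM in Lyve-1+, with all 5 lower and 0 called. The 7 fibroblast markers summed to 251 to 334 CPM in Lyve-1- and 470 to 1420 CPM in Lyve-1+, with all 7 higher and 0 called. Markers of T cells (5 genes, 124 to 179 against 47.7 to 194 CPM), B cells (4 genes, 3.01 to 29.4 against 10.1 to 83.7 CPM), neutrophils (3 of 4 genes, 10.2 to 45.5 against 28.2 to 231 CPM), lymphatic endothelium (4 genes, 14.5 to 26.1 against 8.1 to 31.8 CPM, with *Ccl21a* at 0 in every library) and mammary epithelium (5 genes, 39.7 to 227 against 31.7 to 67.4 CPM) overlapped, and the 4 globin genes were at 0 throughout. The part of these markers in the ribosomal protein values was not tested.

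*Rps24*, a small-subunit protein needed to process the precursor of 18S ribosomal RNA, gave the one call among the members. It lies on chromosome 14 of GRCm38 (24487125 to 24496959, plus strand) and held 726, 601 and 712 CPM in Lyve-1- replicates 1, 2 and 3 and 296, 326 and 312 CPM in Lyve-1+ replicates 1, 2 and 3. The lowest Lyve-1- library was well above the highest Lyve-1+ library, and the spread within groups was 0.12 on the log2(CPM + 1) scale, against a median of 0.45 for the tested members. The means were 680 ± 68.6 CPM (SD, n = 3) and 311 ± 15.3 CPM (SD, n = 3), a log2 fold change of -1.13 (SE 0.24, edgeR adjusted p = 0.0456), so that the fitted level fell by 54.2%. Across the 19 alternatives the log2 fold change stayed between -1.19 and -1.05, while the adjusted p ran from 3.64e-05 to 0.493. Leaving out any 1 of the 6 libraries took the adjusted p above 0.05 (0.0603 without Lyve-1- replicate 2 at the lowest, 0.183 without Lyve-1- replicate 3 at the highest). *Rps24* is the one member in the gene list of the study, which was chosen on these libraries, so that its presence there is no independent evidence.

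Other small-subunit genes followed with wider errors. *Rps19*, which is needed for the maturation of 18S ribosomal RNA and is the gene most often mutated in Diamond-Blackfan anaemia, held 246, 149 and 231 CPM in Lyve-1- and 88.5, 105 and 84.8 CPM in Lyve-1+. The subsets did not overlap, with a log2 fold change of -1.17 (SE 0.30, adjusted p = 0.123), and DESeq2 gave an adjusted p = 0.0111. *Rps10*, a protein of the small subunit's head, held 149, 108 and 187 CPM in Lyve-1- and 80.4, 10 and 65.8 CPM in Lyve-1+, and had the lowest fold change of the members (log2 -1.51, SE 0.60, adjusted p = 0.537). Its value in Lyve-1+ replicate 2 rests on 210 counts, against 525 to 1780 in the other libraries, and its log2 fold change was -1.02 without that library.

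*Rps6*, the substrate of the S6 kinases downstream of mTOR, held 865, 567 and 716 CPM in Lyve-1- replicates 1, 2 and 3 and 364, 480 and 10.3 CPM in Lyve-1+ replicates 1, 2 and 3. The last value stands on 82 counts, 84.3-fold below the highest library, and no other library was under 364 CPM. The subsets did not overlap, but with this spread the log2 fold change of -1.33 had an SE of 1.21 (adjusted p = 1), and it was -0.76 without that library. *Rpsa*, the laminin receptor homologue of the small subunit, held 631, 688 and 857 CPM in Lyve-1- and 345, 554 and 554 CPM in Lyve-1+ (log2 fold change -0.58, SE 0.26, adjusted p = 0.612), again without overlap. *Rps27a*, which is made as a fusion with ubiquitin, showed no order by subset, with 25.2, 82.8 and 8.26 CPM in Lyve-1- and 7.27, 117 and 4.63 CPM in Lyve-1+ (log2 fold change 0.15, SE 1.39). Its replicate 2 was the highest library in both subsets.

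Among the large-subunit genes, *Rpl41*, the smallest ribosomal protein, held 195, 139 and 116 CPM in Lyve-1- and 56.8, 72.6 and 63.6 CPM in Lyve-1+. All Lyve-1+ libraries were below all Lyve-1- libraries, with a log2 fold change of -1.22 (SE 0.32, adjusted p = 0.138; DESeq2 adjusted p = 0.0218). *Rpl10*, which helps to close the peptidyl transferase centre in the last steps of 60S assembly, held 361, 295 and 372 CPM in Lyve-1- and 94.3, 209 and 207 CPM in Lyve-1+ (log2 fold change -1.01, SE 0.32, adjusted p = 0.27). These groups did not overlap either. For *Rpl15* the fitted fold change of -1.47 (SE 0.95, adjusted p = 0.93) came from 1 library. It held 105 CPM in Lyve-1- replicate 1, and 3.71 and 12.3 CPM in Lyve-1- replicates 2 and 3, against 17, 9.91 and 16.9 CPM in Lyve-1+. Without Lyve-1- replicate 1 its log2 fold change was 0.87.

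Other members at an unadjusted p under 0.05 and lower included *Rpl9*, *Rpl35*, *Rpl28*, *Rpl12*, *Rpl18*, *Rpl23*, *Rplp0*, *Rps25*, *Rps7* and, as above, *Rpsa*, *Rps10*, *Rpl10*, *Rps19* and *Rpl41*. These were named after their values were seen. Their log2 fold changes ran from -1.51 to -0.58 and their edgeR adjusted p from 0.123 to 0.624.

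**Figure D4:**
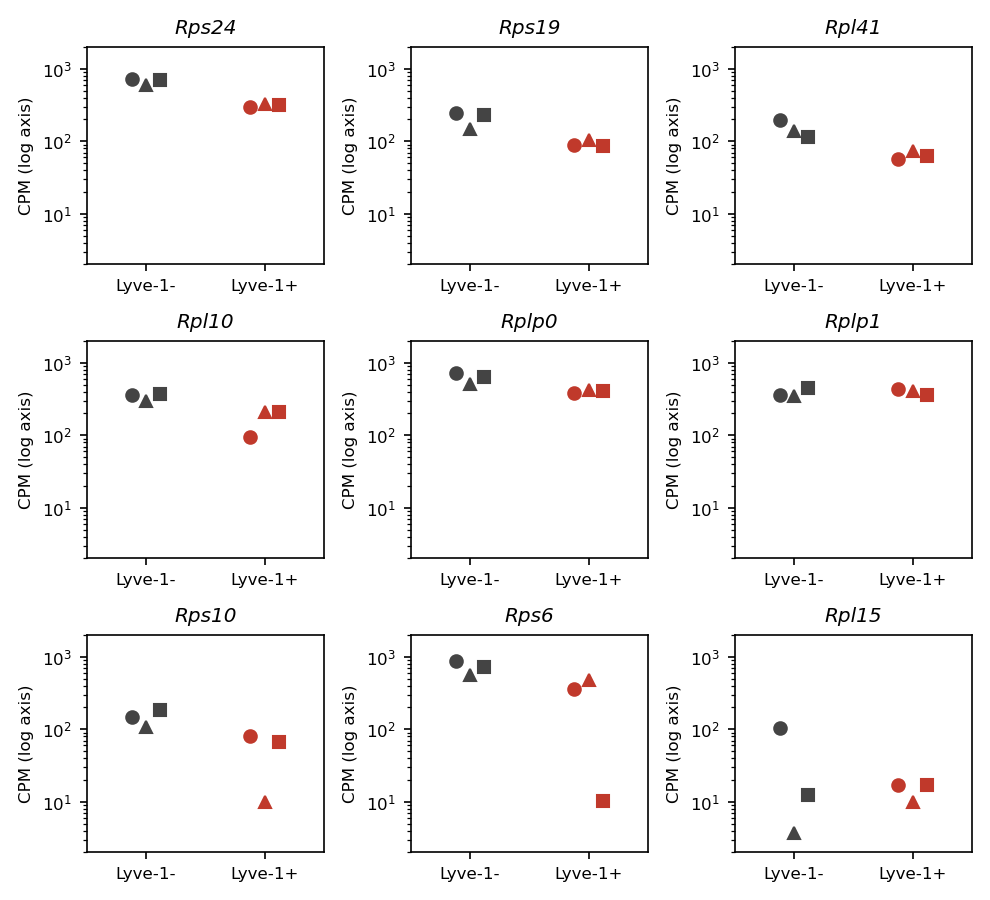
CPM (log axis) of 9 members in each library, with circles, triangles and squares for replicates 1, 2 and 3. *Rps24*, *Rps19*, *Rpl41*, *Rpl10* and *Rplp0* separate the subsets, *Rplp1* does not, and *Rps10*, *Rps6* and *Rpl15* each have 1 library far from the rest (10, 10.3 and 105 CPM).

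The stalk of the large subunit recruits the elongation factors, and its genes did not move together. *Rplp0*, the stalk base, held 727, 504 and 645 CPM in Lyve-1- and 381, 420 and 413 CPM in Lyve-1+, without overlap (log2 fold change -0.63, SE 0.24, adjusted p = 0.464). *Rplp1*, which binds it as a dimer with the *Rplp2* protein, held 361, 343 and 444 CPM in Lyve-1- and 436, 410 and 358 CPM in Lyve-1+ (log2 fold change 0.07, SE 0.24). *Rplp2* held 283, 204 and 363 CPM in Lyve-1- and 231, 211 and 286 CPM in Lyve-1+ (log2 fold change -0.22, SE 0.28). The subsets overlapped in the last 2 genes. The difference between stalk genes was not tested.

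*Rpl5* and *Rpl11* bind the 5S ribosomal RNA, and the particle they form outside the ribosome can inhibit Mdm2, the ligase that degrades p53. *Rpl5* held 918, 576 and 1010 CPM in Lyve-1- and 492, 649 and 703 CPM in Lyve-1+ (log2 fold change -0.44, SE 0.27, adjusted p = 0.881). *Rpl11* held 194, 60.2 and 279 CPM in Lyve-1- and 117, 100 and 177 CPM in Lyve-1+ (log2 fold change -0.43, SE 0.46, adjusted p = 1). Both pairs of groups overlapped through the low Lyve-1- replicate 2.

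Of the 5 members with the highest fold changes, none rose past the adjusted threshold and most rested on few counts. *Rps4l*, which GENCODE lists as a transcribed processed pseudogene on chromosome 6 (148354656 to 148355598), had 0 counts in all 3 Lyve-1- libraries and 72, 67 and 43 counts in Lyve-1+ replicates 1, 2 and 3. Set against a floor of 3 counts over the Lyve-1- group, it was at least 43.4-fold higher in Lyve-1+ (edgeR adjusted p = 0.441). Lyve-1- replicate 3, with the most olfactory receptor genes detected, was among the libraries at 0. The source of the *Rps4l* counts was not tested. *Rps27*, a zinc-finger protein of the small subunit, had 0 counts in Lyve-1- and 20, 30 and 16 counts in Lyve-1+, at least 15.7-fold higher against the same floor (adjusted p = 0.633). These levels, 1.43 to 2 CPM, were far below those of most members.

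*Rpl23a*, a protein at the exit of the peptide tunnel, held 7.35, 8.48 and 22 CPM in Lyve-1- and 89.3, 48.7 and 5.26 CPM in Lyve-1+ (log2 fold change 1.93, SE 0.83, adjusted p = 0.58). Lyve-1+ replicate 3 was the lowest library of all, and without it the log2 fold change was 2.46 (adjusted p = 0.0425). It was 1.13 (adjusted p = 1) when the highest library, Lyve-1+ replicate 1, was dropped, and 0.82 (adjusted p = 1) with the 10-week libraries alone. *Rps23*, which lies at the decoding centre, had 0, 31 and 13 counts in Lyve-1- and 26, 42 and 179 in Lyve-1+ (log2 fold change 2.51, SE 2.01), and was at 0.37 without Lyve-1+ replicate 3. *Rpl29* had 1, 0 and 9 counts in Lyve-1- and 34, 1 and 31 in Lyve-1+ (log2 fold change 2.23, SE 2.70). The subsets overlapped in these 3 genes.

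The paralogues are second copies of ribosomal protein genes, several of them known from muscle or testis. *Rpl10l* had no counts in any library (up to 3 counts, or 0.143 to 0.435 CPM by library, could go unseen), and *Rpl39l* had 0 to 4 counts and was not tested. *Rpl3l*, known from striated muscle, had 0, 0 and 19 counts in Lyve-1- and 16, 0 and 11 in Lyve-1+. *Rpl7l1* had a log2 fold change of 0.18 (SE 0.43), its parent *Rpl7* one of -0.46 (SE 0.26). *Rpl22l1* was at 0.17 (SE 1.82), its parent *Rpl22* at -0.38 (SE 0.29), and *Rps27l* at 0.14 (SE 0.57). The differences between paralogue and parent were not tested. Of the 5 paralogues tested, 4 were above 0 and 1 below, with 0 called, 1 at an unadjusted p under 0.05 (*Rps4l*), and a median of 0.17. Of their 7 parents, 1 was above 0 (*Rps27*) and 6 below (median -0.38), with *Rpl3* at -0.04, *Rpl39* at -0.47 and *Rps4x* at -0.23.

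Most proteins of a ribosome, the stalk proteins aside, are present in equal numbers, but the mRNA values were far from equal. Per kb of exon, the highest members over all libraries were *Rplp1* (785 CPM per kb), *Rpl4* (474) and *Rps15* (435), and the median member held 60.2 CPM per kb. *Rpl4*, a protein lining the peptide tunnel, held 1180, 892 and 1130 CPM in Lyve-1- and 630, 792 and 1080 CPM in Lyve-1+ (log2 fold change -0.35, SE 0.26). *Rps15*, of the head of the small subunit, held 335, 245 and 310 CPM in Lyve-1- and 193, 188 and 371 CPM in Lyve-1+ (log2 fold change -0.24, SE 0.31). The lowest tested members were *Rpl3l* (0.542 CPM per kb), *Rps27* (0.791) and *Rpl29* (1.17). *Rpl26*, a protein that every cell uses, had no counts in any library, and *Rpl30* and *Rpl34* had 0 to 14 and 0 to 15 counts. The exon length is that of all annotated transcripts of a gene together, so a per-kb value is low where long rare forms are annotated. The 10 members with the most CPM held 41.1% of all member counts.

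Ribosomal protein genes have many processed pseudogenes, and reads of 50 bases from a gene can match such a copy. In 80 of the 83 members, some of the 50-base words of the principal GENCODE transcript also occurred in another annotated gene, with a median of 8 and up to 120 pseudogenes (*Rpl7a*) per member. In 29 members every 50-base word of the coding sequence was shared, and in *Rpl3l* and *Rpl39l*, among others, none was. All words of the *Rps27* coding sequence and 98.6% of its transcript words were shared, against 80.4% and 68.7% for *Rps24*. How reads with several matches were counted was not given in the sources used here, so the values of members with wholly shared sequence are uncertain. The 29 wholly shared members had a median of 35.6 CPM per kb and a median spread within groups of 0.64 on the log2 scale. The other members with a coding sequence (53, of which 48 were tested) had 65.9 CPM per kb and a spread of 0.34. Both sets had a median log2 fold change of -0.34. As a graded measure, the shared share of the coding sequence had a Spearman's rho of only -0.12 with CPM per kb (n = 82). For the shared share of the transcript the rho was -0.09 (n = 83).

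**Figure D5:**
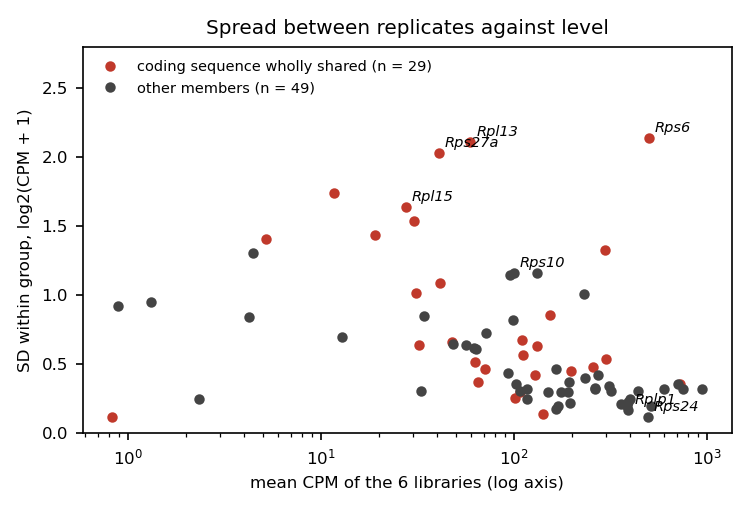
SD within groups of log2(CPM + 1) for the 78 tested members against their mean CPM (log axis), in red where every 50-base word of the coding sequence also occurs in another annotated gene. *Rps6*, *Rpl13* and *Rps27a*, with a spread above 2, are among the 29 wholly shared members, and *Rps24* and *Rplp1* have a low spread (0.12 and 0.17) at a high level.

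In 8 members the highest library was over 10 times the lowest, itself above 0, and in 5 of them the lowest library was Lyve-1+ replicate 3 (*Rps6*, *Rpl13*, *Rps27a*, *Rpl23a* and *Rpl35a*). The others were *Rpl15*, *Rps10* and *Rpl17*, and 6 of the 8 had a wholly shared coding sequence. At the steady end, 24 members stayed within 2-fold over all 6 libraries. The tested members varied less between replicates (median SD within groups 0.45) than all genes tested (0.78). The 2 sets were not matched for level, and among members the median was 0.32 at a mean of at least 100 CPM and 0.82 below it. A lower spread is therefore not shown to be particular to these genes. Across the 78 tested members the fold change had a Spearman's rho of -0.05 with GC content, -0.24 with exonic length, 0.12 with the shared share of the transcript and -0.43 with the mean CPM, and the spread within groups had a rho of -0.51 with the mean CPM and 0.35 with the shared share. These points come from the same 6 libraries and are given as a description.

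The members mapped to all chromosomes but chromosome 19 and Y, with 14 on chromosome 7, 8 on chromosome 17 and 4 on X. They were short, with a median exonic length of 1770 bp against 4515.5 bp for all genes tested, and a GC content of 51.8% against 51%.

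Ribosomal proteins whose names fall outside the pattern had the same sign. *Rps3a1*, *Fau*, *Gnb2l1* (Rack1) and *Rpl36al* were all below 0, with log2 fold changes from -0.99 (*Rpl36al*) to -0.37 (*Gnb2l1*). The edgeR test called 0 of these 4, with 0 at an unadjusted p under 0.05, and the subsets overlapped in each. The 18 listed genes known from Diamond-Blackfan anaemia, an inherited failure of red cell production, are all among the 83 members. Their values are therefore part of the results above and no further evidence. Of the 18, 17 were tested. Of these, 13 were below 0 and 4 above, and the median was -0.43. At an unadjusted p under 0.05, 6 were lower (3.5% of all genes tested) and 1 was higher (4.2%), which was *Rps27*, at 0 in every Lyve-1- library. The 1 called was *Rps24* (0.18% of all genes tested were called lower).

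The rest of the translation machinery was described by lists, to be read against all genes tested, of which 3.5% were lower and 4.2% higher at an unadjusted p under 0.05, and 6.5% had all Lyve-1+ libraries lower. Of 9 elongation and release factors, 6 were below 0 and 3 above (median -0.23), 0 were called or at an unadjusted p under 0.05, and in 3 (*Eef1a1*, *Eef2*, *Eef1g*) the Lyve-1+ libraries were all lower. *Eef1a1*, which brings aminoacyl-tRNA to the ribosome, held 3000 ± 223 CPM in Lyve-1- and 2200 ± 263 CPM in Lyve-1+ (SD, n = 3, log2 fold change -0.44, SE 0.21, adjusted p = 0.662). Other mRNAs with a TOP motif, a list that shares genes with the factors, had 15 of 18 below 0 (median -0.32) with 0 called, 1 at an unadjusted p under 0.05 (*Eif3e*) and 6 with all Lyve-1+ libraries lower. Of 35 tested initiation factors, 23 were below 0 and 12 above (median -0.15), with 0 called and 1 at an unadjusted p under 0.05 (*Eif3e*). *Eif2b1* (-1.13) and *Eif3m* (-1.11) were lowest, and *Eif2s3x* (1.37) and *Eif3g* (0.54) highest.

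Genes for building ribosomes, for control of translation and for mitochondrial ribosomes followed. Of 34 assembly factors and RNA polymerase I subunits, 19 were below 0 and 15 above (median -0.01), with 0 called and 0 at an unadjusted p under 0.05. *Gar1* (-1.20) and *Wdr12* (-0.88) were lowest, *Polr1b* (0.98) and *Grwd1* (1.02) highest. Of 13 genes that control the translation of ribosomal protein mRNAs, 5 were below 0 and 8 above (median 0.10), again with 0 called and 0 at an unadjusted p under 0.05. In 2 of the 13 all Lyve-1+ libraries were lower (6.5% of all genes tested), the kinase *Mtor* at -0.51 (SE 0.33) and its partner *Rptor* at -0.36 (SE 0.32). In 1 they were all higher (7.82% of all genes tested), the *Mtor* inhibitor *Tsc2* at 0.85 (SE 0.42). The subsets overlapped in the rest of the list, among them *Tsc1* (-0.09), *Akt1* (-0.23), *Rps6kb1* (0.08) and *Rps6kb2* (0.82, SE 0.97). Of 77 mitochondrial ribosomal protein genes, 33 were below 0 and 44 above (median 0.17), with 0 called, 1 higher at an unadjusted p under 0.05, 9 with all Lyve-1+ libraries higher (7.82% of all genes tested) and 2 with all lower (6.5%). *Mrps33* (-2.74) and *Mrpl23* (-1.79) were lowest, and *Mrpl51* (2.81) and *Mrps36* (2.70) highest, all of low level. Only 9 of the 1102 olfactory receptor genes were tested (median -0.18, 0 called).

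The ages were then compared, 10 weeks with 6 weeks, in a model that also held the subset. The edgeR test called 0 members, as did DESeq2, where 0.0225% of all genes tested were called by edgeR. At an unadjusted p under 0.05, 2 members were called, against 3.33% of all genes tested. They were *Rpl17*, at a mean of 40.2 CPM at 6 weeks and 8.54 CPM at 10 weeks (log2 fold change -2.26, SE 0.75, adjusted p = 1), and *Rpl15*, at 60.9 and 10.7 CPM (log2 fold change -2.37, SE 0.84, adjusted p = 1). In the other direction, *Rps16* (0.77, SE 0.40) and *Rpsa* (0.48, SE 0.26) had the smallest p. The median of the tested members was 0.05, against 0.07 for all genes, with 46 above 0 and 32 below. When Lyve-1+ replicate 3 was left out, 2 members were called, *Rpl15* and *Rpl19*. The share of all genes called in that fit is not given here, so these 2 calls cannot be set against it.

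The subset difference was also compared between the ages in a model with an interaction term. At 6 weeks each subset has 1 library, so the spread comes from the 10-week libraries alone and the lone libraries are assumed to vary like them. The edgeR test called 0 members, where 0.00749% of all genes tested were called, and 8 members were at an unadjusted p under 0.05, against 4.59% of all genes tested. The lowest adjusted p of a member was 0.657, for *Rpl27*, which had 0 counts in Lyve-1- and 231 counts in Lyve-1+ at 6 weeks, and 8.48, 19.3, 4.95 and 19.4 CPM in the 10-week libraries of Lyve-1- and then Lyve-1+. With the 10-week libraries alone, the median log2 fold change of the members for Lyve-1+ against Lyve-1- was -0.28, against -0.05 for all genes, and 55 of 78 were below 0.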

How the data were processed

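Per the labels and the study's methods, the authors mapped paired 50-bp reads (SMARTer Stranded Total RNA-seq Kit-Pico) to mm10 with HISAT2 2.0.2, summarised them with featureCounts 1.5.0 and deposited raw counts per gene symbol without normalization. The strand setting and the treatment of multiply mapped reads were not given in the sources used here.

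From these counts, genes were filtered with edgeR's filterByExpr, scaled by TMM, and tested with edgeR 4.0.16 (R 4.3.3) by the quasi-likelihood test in a model of the subset alone, and p-values were adjusted by Benjamini-Hochberg over all 13348 genes tested. Fold changes are on the log2 scale, Lyve-1+ against Lyve-1-, and SE is the fold change divided by the root of F. Calls use an adjusted p under 0.05. DESeq2 1.42.0 and other scalings, filters and subsets of libraries were alternatives. The test was tried on simulated data. The spread between pools was wide (common biological coefficient of variation 0.931). Nothing in the labels says that the pools of a group came from separate experiments, so p-values measure the spread between these pools, and floors of 3 counts cover counting error only.

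Exonic length, GC content and positions came from GENCODE M21 (GRCm38), in which 22749 symbols matched directly, 916 through a synonym and 396 did not. Each 50-base word of a member's principal transcript was looked up on both strands in the transcripts of all other genes that do not overlap it. Copies outside the annotation were not covered. The table held no mitochondrially encoded genes, and *Rn45s* was its one ribosomal RNA gene.

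Named members were those called, the member in the study's gene list, the 5 highest and 5 lowest fold changes, the 3 with the most and, among those tested, the 3 with the fewest counts per kb, the stalk and 5S proteins, *Rpsa*, *Rps27a*, *Rps6*, and paralogues with their parents. Further genes were picked with their values in view, as were the limits of 100 CPM and of 10-fold between libraries. The members and the gene lists were chosen with earlier results of these data known. Values of some single genes are not reported here.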

Additional observations from a re-analysis of the deposited data

How the results depend on the processing

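The median log2 fold change of the ribosomal protein genes stayed below 0 under all 19 alternatives, at -0.43 to -0.16, and the log2 ratio of the summed CPM at -0.51 to -0.29 where it was computed. Without the filter on low counts, the members' median was -0.35, but that of all genes was then -0.27 (62 of 81 members and 59.5% of all genes below 0).

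The count of called members, 1 in the report, was 3 with DESeq2 (254 of all genes) and 4 without the filter (289 of all genes). It was 0 with the 10-week libraries alone (39 of all genes) and without the 2 libraries that stood apart (3 of all genes). With the limits of the study set on the edgeR test, not on the study's DESeq2, it was also 0 (15 of all genes). All genes called were 84 in the report, 128 with at least 10 counts in every library and 130 with age as a covariate. With 1 library left out, 0 to 1 members and 19 to 155 genes were called. The 19 came without Lyve-1- replicate 3, and 48 were left when Lyve-1+ replicate 1 was dropped. For age the range was 0 to 2 members, given without the counts of all genes.

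With the replicate number as a block, 4 members (*Rpl10*, *Rps10*, *Rps19*, *Rps24*) and 270 genes were called. The labels give same-numbered libraries the same age and do not say whether they came from the same mice. Deviations of same-numbered libraries from their group means correlated at 0.01, 0.01 and -0.06. No Lyve-1- library correlated best with its own number. With 3 libraries in each subset this cannot exclude a pairing, and the main test was run without 1.

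Directions turned only in genes that were not called. With 1 library left out, log2 fold changes ran from -1.92 to 0.87 for *Rpl15*, -0.65 to 6.51 for *Rpl3l*, -0.77 to 0.05 for *Rpl11*, -2.70 to 1.45 for *Rps27a*, -0.20 to 0.51 for *Rpl7l1*, -0.22 to 1.02 for *Rpl22l1*, -0.30 to 0.53 for *Rps27l*, -0.19 to 0.18 for *Rpl3* and -0.84 to 0.11 for *Rpl39*. With the block, *Rpl3l* was 1.49 and *Rps27a* -0.70, and with age as a covariate they were 0.50 and -0.28. At 10 weeks alone, *Rpl15* was 0.74, *Rplp1* -0.04 and *Rps15* 0.00. Without both libraries that stood apart, *Rplp2* was 0.01, *Rpl11* 0.11 and *Rpl3* 0.01. The cause was not tested.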
